A study of Mus musculus with 10 samples.

Results

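The replication-dependent histone genes encode the histones that package newly made DNA, namely the linker histone H1 and the core histones H2A, H2B, H3 and H4, of which an octamer forms each nucleosome. The members described here were all protein-coding genes of the count table whose mouse symbol, paired with the identifier through a GENCODE annotation of GRCm38, begins with Hist1h, Hist2h, Hist3h or Hist4h. There were 65 of them among 51467 genes, with 6 encoding H1, 18 encoding H2A, 16 encoding H2B, 12 encoding H3 and 13 encoding H4. The cluster on chromosome 13 (Hist1) held 52, that on chromosome 3 (Hist2) 10, that on chromosome 11 (Hist3) 2, and Hist4h4 lies alone on chromosome 6. The reference also names Hist1h2bm and Hist1h2bh, under identifiers without a row, so they were not analysed here.

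Messages of this kind are unusual among animal mRNAs in that most of their copies end without a poly(A) tail. Their last bases fold into a conserved stem-loop, which is bound by the stem-loop binding protein SLBP, and cleavage just after it by a complex guided by the U7 small nuclear RNA makes the mature end. The messages accumulate in S phase and are destroyed when DNA synthesis stops. Some members carry in addition a downstream polyadenylation site that gives a tailed form. The measurement used here, QuantSeq, primes cDNA from stretches of A, normally the poly(A) tail, and so the counts below are of primed copies and not of all copies of a message in the cell.

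The libraries came from bulk RNA of mouse embryonic stem cells grown with serum, LIF and 2i, the kinase inhibitors PD0325901 and CHIR99021, which hold such cells in a naive state. The V6.5 line, wild type (WT) at both loci, gave 3 libraries. DGCR8 KO cells, which lack the RNA-binding partner of Drosha and with it most mature miRNAs, gave 3 libraries. The study describes their line as made earlier in the same laboratory, while the deposited notes name CRISPR for all knockout cells. DDX6 KO cells, which lack an RNA helicase that joins the deadenylation and decapping machinery, gave 4 libraries, 2 from each of 2 CRISPR clones of V6.5 with an insertion or a deletion early in an exon of Ddx6. Dgcr8 had 27 to 38 counts in the DGCR8 KO libraries against 101 to 295 in the others. Ddx6 had 387 and 408 counts in clone 1 and 92 and 111 in clone 2, against 1051 to 2628 in the others. Tags from the 3′ end do not read the edits themselves, so these counts show a lower message level and not the edited sequence. The total over genes was 2131156 to 4745083 counts per library, so 3 counts, taken as the floor, correspond to 0.669 to 1.44 CPM (counts relative to the library total, with totals scaled by TMM), the unit of all levels below. All 8 markers of embryonic stem cells were tested and summed to 3640.2 to 4309 CPM per library. The 7 primitive endoderm markers summed to 8.69 to 13.4 CPM in WT, 4.07 to 6.45 in DGCR8 KO and 17.4 to 24.5 in DDX6 KO, mostly Dab2, and Sox7 had 1 count in all. The 7 fibroblast markers summed to 3.41 to 4.32, 2.44 to 3.39 and 5.28 to 9.52 CPM, with Dcn and Postn at 1 count each, and the 5 markers of differentiated epiblast to 194 to 287, 148 to 178 and 81.4 to 107 CPM, with Fgf5 at 0 throughout. The part of these differences in the results below was not tested.

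The stem-loop is shown first, since it is the feature that sets these messages apart. The annotated transcripts (GENCODE for GRCm38) were searched on the sense strand, after the stop codon, for GGNNNTNNNNANNNCC with 6-base arms that pair with at most 1 mismatch. Of the 52 members with an annotated 3′ UTR, 43 had a match in the first 150 bases (82.7%), against 0.553% of 20599 other coding genes, and Hist1h2bp had one in another annotated transcript. It began 22 to 59 bases after the stop codon. In the lines below capitals mark the stem and loop and lower case the bases on either side, for the members named in the results.
Hist1h1c: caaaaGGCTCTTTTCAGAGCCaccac
Hist1h1d: caaacGGCTCTTTTCAGAGCCaccca
Hist1h1e: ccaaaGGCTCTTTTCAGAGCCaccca
Hist1h2ae: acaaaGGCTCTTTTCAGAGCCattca
Hist2h2ac: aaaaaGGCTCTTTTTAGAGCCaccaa
Hist3h2a: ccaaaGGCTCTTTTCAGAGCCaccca
Hist1h2bk: ccaaaGGCTCTTTTAAGAGCCactaa
Hist1h2bp: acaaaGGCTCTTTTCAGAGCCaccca
Hist1h3c: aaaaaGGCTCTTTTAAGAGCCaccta
Hist1h4d: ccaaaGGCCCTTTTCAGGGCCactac
Hist1h4i: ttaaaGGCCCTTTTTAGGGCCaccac
H2afx: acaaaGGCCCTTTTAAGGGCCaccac

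These lie, in the same order, at chr13:23739507-23739532 (plus strand), chr13:23555782-23555807 (plus strand), chr13:23621777-23621802 (minus strand), chr13:23570663-23570688 (minus strand), chr3:96220413-96220438 (minus strand), chr11:58955167-58955192 (plus strand), chr13:22036295-22036320 (plus strand), chr13:21787918-21787943 (plus strand), chr13:23745042-23745067 (minus strand), chr13:23581945-23581970 (plus strand), chr13:22040961-22040986 (minus strand) and, for H2afx, chr9:44335235-44335260 (plus strand). The arms of all 44 matches paired without a mismatch. The H1, H2A, H2B and H3 genes shared the stem arms GGCTCT and AGAGCC in all their matches, 24 of them with the loop of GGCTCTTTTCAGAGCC and 6 with that of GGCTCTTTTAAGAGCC. The H4 genes had stems not found in the other member classes, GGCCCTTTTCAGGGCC in 7 of 12, with 2 each of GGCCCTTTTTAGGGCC and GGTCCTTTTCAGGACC. The arms of the first of these also stood in H2afx. H2afx, which is no member but is transcribed both as a stem-loop and as a tailed message, was the only one of 11 replication-independent histone genes with a match. AATAAA, the usual polyadenylation signal, stood in the first 150 bases of the UTR of 2 members (3.85% of those with a UTR, against 14.5% of other coding genes) and anywhere in the UTR of 18. Many member UTRs are annotated shorter than 150 bases, while the median of other coding genes was 803. The 2 shares are therefore not over windows of like length. A match says only that these letters are in the annotated window.

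How far the counted exons run past the stop codon differed between members and bears on every level below. The stop codon taken is that of the annotated transcript with the longest coding sequence. In the authors' annotation the counted region of 17 members, Hist1h1a and Hist1h1b among them, ended at most 4 bases past the stop codon. Their counted reads overlapped this region but may have run past its end, since the methods state no minimum overlap. Those 17 held 20583 of the 39255 member counts (52.4%). Another 32 were counted to 37 to 154 bases past it, which takes in the stem-loop wherever one was found, and held 37.1%. The remaining 16 were counted over 200 bases past it and held 10.4%. Oligo(dT) can also anneal to stretches of A within a message. Such a stretch is shown for the tested H1 genes, whose tails are rich in lysine codons, as the 20 bases of coding sequence with the most A, with each A in capitals.
Hist1h1a: gAAAgtgAcAAAgccAAAgA
Hist1h1b: AAgAAgAAgAcAAcgAAAAA
Hist1h1c: AAAAAgAAggccgccAAgAA
Hist1h1d: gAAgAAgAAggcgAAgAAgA
Hist1h1e: AAAAccgcAgccAAgAAAAA

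The windows are at chr13:23764298-23764317 (plus strand), chr13:21780475-21780494 (minus strand), chr13:23738909-23738928 (plus strand), chr13:23555149-23555168 (plus strand) and chr13:23621842-23621861 (minus strand). Hist1h1b had 14 A in 20 bases, the highest of the members, and 15.6% of 20599 other coding genes had at least as many. The other H1 genes had 10 to 12. The windows of Hist1h1b, Hist1h1c and Hist1h1d began at base 60 or 61 of the coding sequence, near its start. Over the H2A genes the richest window held 9 to 12, over H2B 10 to 12, over H3 7 to 8 and in every H4 gene 8, against a median of 12 in other coding genes. Which of these sites primed the reads was not tested, since the counts hold no positions within a gene.

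The 65 genes differed widely in how many reads they drew. Together they held 2867 to 6981 counts per library, which is 0.0904% to 0.156% of all counts. Of the 65, 59 had at least 1 count, 19 had at most 3 in every library, and 16 had at least 10 in every library. Hist1h2ap, Hist1h2bq, Hist1h2br, Hist2h2aa1, Hist2h2aa2 and Hist2h3c1 had 0 in all 10 libraries. Counting error allows up to 0.669 to 1.44 CPM of uniquely mapped reads in each. Reads that fit more than 1 gene were dropped, so this sets no limit on the level of these genes. Per kilobase of counted exon, the highest mean level over the 10 libraries was that of Hist1h1b (605 CPM per kb), followed by Hist1h1d (299.6), Hist1h1a (281), Hist1h1e (182) and Hist1h1c (66.5). The highest core histone genes were Hist1h2an (63.5) for H2A, Hist1h4d (57.01) for H4, Hist1h2bk (33.6) for H2B and Hist1h3c (25.1) for H3. Tags next to a priming site need not grow in number with exon length, so these values lean on the annotated length. In plain CPM the genes named here stood in the same order, but Hist1h1c had 104 and Hist1h2an 24.95. The median over members was 2.08 CPM per kb, and Hist1h1t, the testis form of H1, had 3 counts in all. Over the 65 genes, counts and bases counted past the stop codon had a Spearman correlation of -0.09, given as a description.

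Core histone genes are near copies of each other, and the authors kept uniquely mapped reads only. Cut into all windows of 50 bases, the read length, the member transcripts shared a median of 54.99% of windows with a transcript of another gene. The windows ran over whole annotated transcripts, beyond the counted region in some members, and matches on either strand were included. The share is therefore not the part of reads lost to unique mapping. Hist2h2bb, with 100% shared, still had 36 counts. The share was 0 to 32% in the H1 genes, with medians of 73.01% in H2A, 54.6% in H2B, 61.98% in H3 and 39.5% in H4. The share was lowest, among the 6 genes at 0, in Hist1h2ap at 93.1%. Across the 65 genes, which share libraries and families, counts and share ran in opposite order (Spearman -0.49 over all, -0.44 over the 59 core genes). Hist1h2an, with 85.8% of windows shared, nevertheless had 751 counts, the most of any core gene. Levels of single core genes are therefore uncertain, and sums over a class leave out the reads that fit more than 1 gene.

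**Figure D1:**
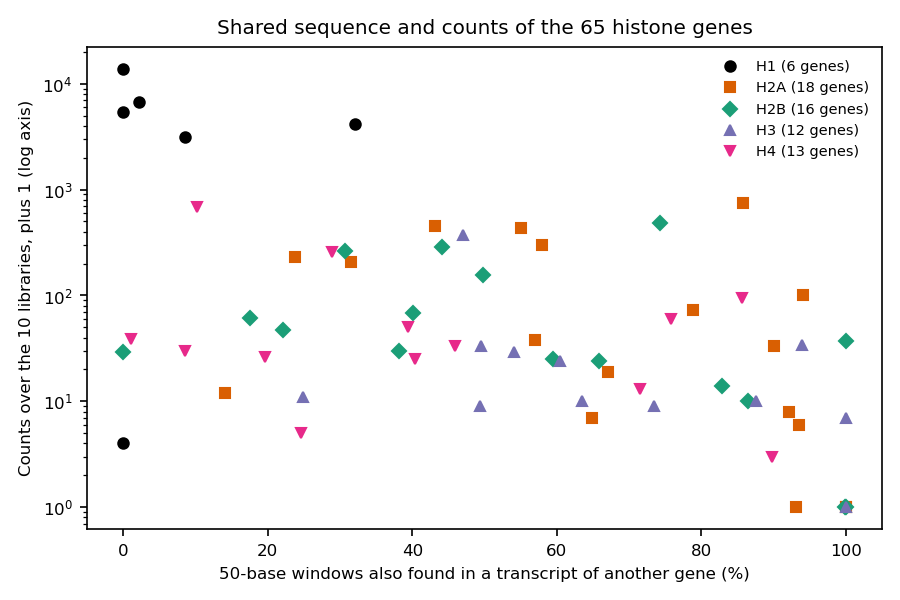
Each point is 1 of the 65 histone genes, with the share of its 50-base windows found in a transcript of another gene on the x axis (%) and its counts over the 10 libraries plus 1 on the y axis (log axis). The 5 H1 genes that were tested have shares of at most 32% (Hist1h1e) and the most counts, and the 6 genes at 0 counts sit at the lower right.

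The first question was how much histone message of each class the primed reads held in WT cells and in each knockout. The members summed to 1594, 1510.1 and 1556 CPM in the WT libraries, 936, 973 and 1186 in DGCR8 KO and 1178, 1347, 1190.5 and 1459 in DDX6 KO. Every library of both knockouts lay below the lowest WT library on this scale. As a share of the plain library total, without TMM, DDX6 KO clone 2 library 2 was at 0.154%, within the WT range of 0.147% to 0.156%, and the other 6 knockout libraries stayed below it. The means were 1554 ± 42.2 (SD, n = 3), 1031 ± 135 (SD, n = 3) and 1294 ± 134 CPM (SD, n = 4), so DGCR8 KO stood at 66.4% and DDX6 KO at 83.3% of WT. The log2 ratio of DDX6 KO to WT was -0.26, and -0.15 with library totals. Sums over chosen members are given without a test. In bulk RNA, fewer cells that express these genes and less RNA per cell cannot be told apart.

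H1 made up 33225 of the 39255 member counts. Its sum was 1352, 1285 and 1328 CPM in WT, 759.6, 812 and 942 in DGCR8 KO and 1023, 1159.6, 1021 and 1251 in DDX6 KO, and the 3 groups did not overlap on this scale. With library totals DGCR8 KO stayed apart, while DDX6 KO clone 2 library 2 (0.132% of the total) lay just above all 3 WT libraries (0.125% to 0.132%). The log2 ratio of the means was -0.66 for DGCR8 KO and -0.25 for DDX6 KO against WT, the second being -0.13 with library totals. Without Hist1h1b, the first of these was -0.30. The 59 core histone genes summed to 243, 226 and 229 CPM in WT, 176, 161 and 244 in DGCR8 KO and 155, 187, 169.9 and 208 in DDX6 KO. Here DGCR8 KO replicate 3 stood above all WT libraries while the other 2 lay below them. The core log2 ratio was -0.26 for DGCR8 KO (-0.46 without replicate 3) and -0.37 for DDX6 KO, in which all 4 libraries were below WT with TMM and 3 of 4 with library totals.

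**Figure D2:**
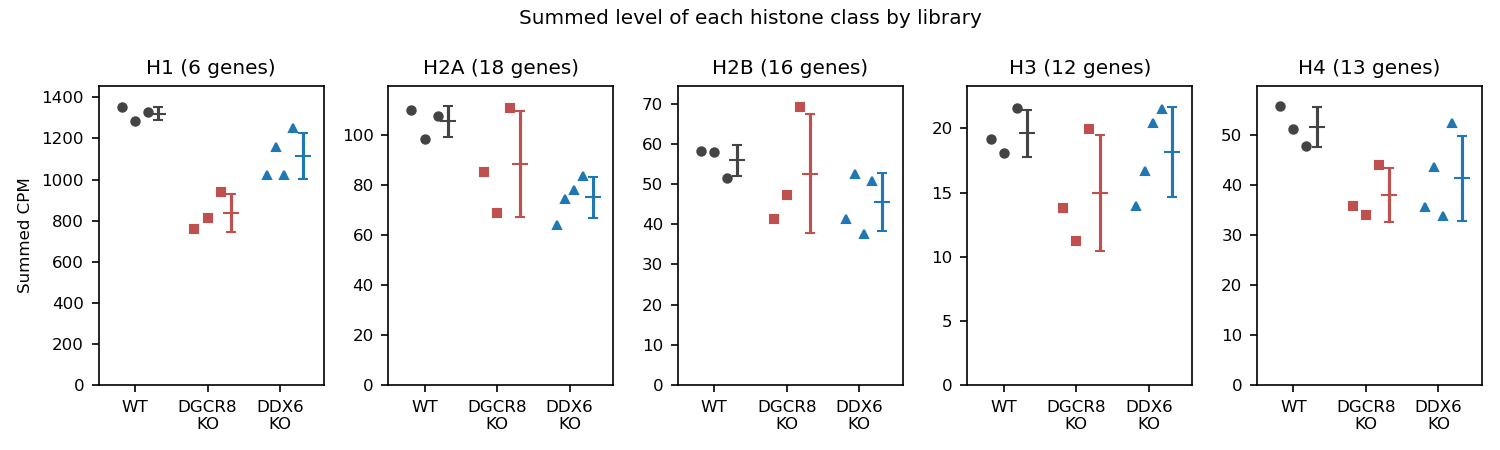
Summed CPM (y axis) of each histone class in each library, by group on the x axis, with points for libraries and bars for the mean ± SD. The H1 panel separates the 3 groups with the TMM scaling plotted (with library totals 1 DDX6 KO library lies above WT), while in H2A, H2B and H3 DGCR8 KO replicate 3 lies within or above the WT libraries.

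Among the core classes, H2A, which pairs with H2B in the dimers at the flanks of the nucleosome, summed to 105 ± 6.08 CPM in WT (mean ± SD, n = 3), 88.3 ± 21.1 in the 3 libraries of DGCR8 KO, and 75.1 ± 8.25 in the 4 of DDX6 KO. H2B summed to 55.8 ± 3.76, 52.6 ± 14.7 and 45.6 ± 7.18 CPM in the same order. In H2A all 4 DDX6 KO libraries lay below WT, and in H2B the highest of them, at 52.5 CPM, was within the WT range. DGCR8 KO replicate 3 was above every WT library in both classes. H3 and H4, which form the tetramer at the centre, summed to 19.6 ± 1.82, 14.98 ± 4.50 and 18.1 ± 3.50 CPM for H3 and to 51.5 ± 4.01, 37.9 ± 5.34 and 41.3 ± 8.49 CPM for H4. The H4 sum of every DGCR8 KO library (35.8, 33.9 and 43.99 CPM) was below the lowest WT library (47.7 CPM), and for H3 the groups overlapped in both knockouts.

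By cluster, Hist1 carried 38419 of the counts, and its log2 ratios against WT were -0.60 for DGCR8 KO and -0.27 for DDX6 KO. Hist2 had 555 counts and summed to 20.5 ± 1.23 CPM in WT (mean ± SD, n = 3), 17.1 ± 6.72 in the 3 libraries of DGCR8 KO, and 17.3 ± 5.53 in the 4 of DDX6 KO, with DGCR8 KO replicate 3 and DDX6 KO clone 2 library 2 above all WT libraries and the other knockout libraries below them. Hist3 had 252 counts, 9.57 ± 1.85, 6.61 ± 0.428 and 8.80 ± 2.06 CPM, with all DGCR8 KO libraries below WT. Hist4h4 had 29 counts, at most 6 in a library, and gave no comparison at this depth.

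With the stop codon taken as above, the 15 core genes counted over 200 bases past it stood in another order than the sets counted less far. A stem-loop was found in 11 of them and not in the other 4, Hist1h2bc included. They summed to 35.04 ± 7.49 CPM in WT (mean ± SD, n = 3), 22.3 ± 3.17 in the 3 libraries of DGCR8 KO, and 36.9 ± 3.60 in the 4 of DDX6 KO. The 29 core genes counted to 37 to 154 bases past it summed to 144 ± 2.08, 126 ± 33.5 and 106 ± 22.2 CPM. The log2 ratio of DGCR8 KO to DDX6 KO was -0.72 in the first set and 0.25 in the second. The second rests on DGCR8 KO replicate 3, without which the ratios were -0.83 and 0.01. The difference between these sets was not tested, and Hist1h2bc and Hist1h4i, described below, belong to the first.

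The comparison of DGCR8 KO with WT asks which histone genes differ in cells without DGCR8. The study names no parent for the DGCR8 KO line, so line and genotype cannot be told apart, here or against DDX6 KO. Of the 65 members, 20 reached 3 CPM in 3 or more libraries and were tested with limma-voom in 1 model over all 11683 genes that passed. A gene was called at an adjusted p (Benjamini-Hochberg) under 0.05 and a log2 fold change beyond 1. Only Hist1h1b was called, which is 1 of 20, with 14.7% of all genes tested called. At the adjusted p alone 4 of 20 were lower (background 16.5%) and 0 were higher (background 19.9%), and 7 had an unadjusted p under 0.05 (background 45.5%). The estimates of 15 of the 20 were below 0 (49.7% of all genes), with a median log2 fold change of -0.44 against 0.004 over all genes. In 8 of 20 all DGCR8 KO libraries were below all WT libraries (21.1% of all genes).

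Linker histones hold the DNA at its entry to the nucleosome and are encoded by several genes of different expression patterns. Hist1h1b, which encodes H1.5 (chr13:21779883-21780625 on the minus strand, no intron), had 569.9, 612 and 636 CPM in the WT libraries, 242, 232 and 297 in DGCR8 KO and 467, 480.0, 421 and 536 in DDX6 KO. The 3 groups did not overlap with TMM, and with library totals 1 DDX6 KO library reached WT. Its log2 fold change was -1.25 ± 0.11 (SE) in DGCR8 KO (limma-voom, adjusted p = 1.69e-07) and -0.35 ± 0.10 (SE) in DDX6 KO (adjusted p = 0.0106). The second was no longer past the threshold with library totals as scaling, without WT replicate 3, or with clone 2 alone. Hist1h1a, which encodes H1.1 (chr13:23763717-23764358 on the plus strand), had 251, 258 and 204 CPM in WT, 132, 159 and 164 in DGCR8 KO and 134, 184, 139 and 183 in DDX6 KO. All 7 knockout libraries were below the lowest WT library with TMM (6 with library totals), and the log2 fold changes were -0.64 ± 0.14 (SE) and -0.56 ± 0.13 (SE) (limma-voom, adjusted p = 0.00172 and 0.00302).

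Hist1h1e, which encodes H1.4 (chr13:23621755-23622502 on the minus strand), differed between the knockouts. It had 158, 117 and 142 CPM in WT, 89.1, 85.5 and 112 in DGCR8 KO and 135, 170.4, 152 and 202 in DDX6 KO, so DGCR8 KO was below WT and DDX6 KO overlapped with it. It fell in DGCR8 KO (-0.54 ± 0.16 (SE), limma-voom, adjusted p = 0.0113), had 0.25 ± 0.14 (SE) in DDX6 KO (adjusted p = 0.173), and the direct contrast of the knockouts gave -0.80 ± 0.15 (SE) (adjusted p = 2.73e-04). Hist1h1d, which encodes H1.3 (chr13:23555087-23555830 on the plus strand), had 259, 217 and 241 CPM in WT, 187, 225 and 259 in DGCR8 KO and 206, 217, 202 and 214 in DDX6 KO. Hist1h1c, which encodes H1.2 and is counted to 880 bases past its stop codon, had 113, 80.8 and 104, 109, 109.9 and 109.6 and 81.7, 108, 107 and 116 CPM. The DGCR8 KO libraries of Hist1h1d spanned the WT range, and its highest DDX6 KO library equalled the lowest WT library to the digits given. The groups of Hist1h1c overlapped. Their log2 fold changes against WT lay between -0.18 and 0.16, with adjusted p from 0.21 to 0.731 in limma-voom.

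**Figure D3:**
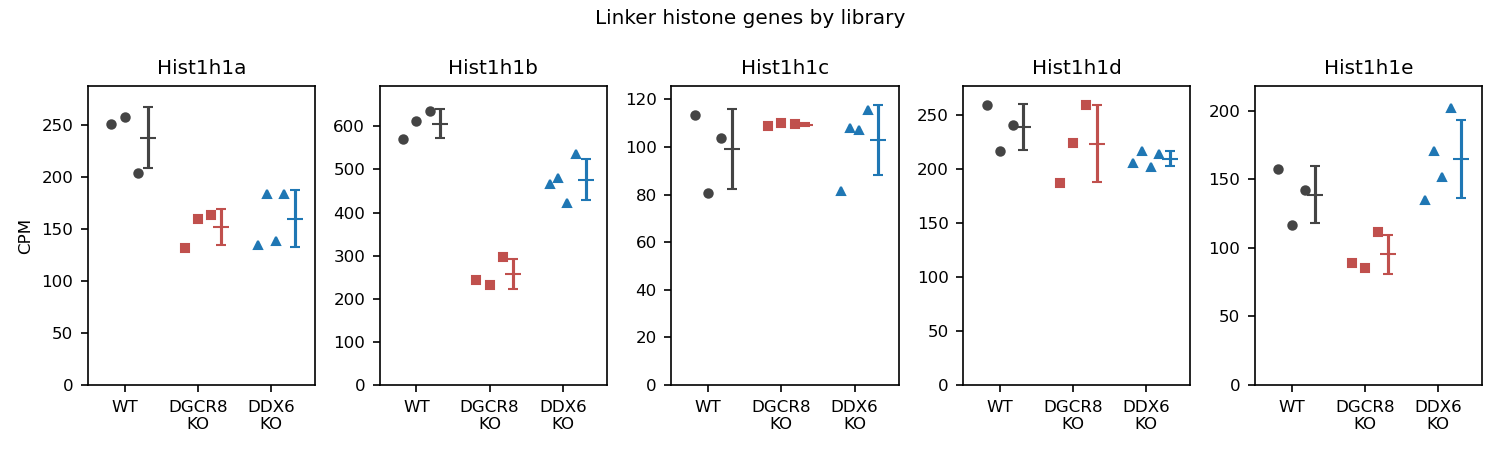
CPM (y axis) of the 5 tested linker histone genes in each library, by group on the x axis, with points for libraries and bars for the mean ± SD. With the TMM scaling plotted Hist1h1b separates all 3 groups (606 ± 33.6, 257 ± 34.7 and 476 ± 47.4 CPM), whereas Hist1h1c overlaps in all 3.

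The make-up of the H1 reads moved with these changes. Of the H1 counts, Hist1h1b gave 45.9% ± 3.25 in WT (mean ± SD over the 3, 3 and 4 libraries of WT, DGCR8 KO and DDX6 KO here and next), 30.7% ± 1.79 in DGCR8 KO and 42.8% ± 2.01 in DDX6 KO. Hist1h1d gave 18.1% ± 1.13, 26.6% ± 1.70 and 18.9% ± 1.37. The range of Hist1h1b in DGCR8 KO, 28.6% to 31.9%, lay apart from those of WT and DDX6 KO, which overlapped. These shares, taken within a library, do not depend on how libraries were scaled, and shares of 1 total cannot all move on their own. The H1 counts were 5.56 to 5.81 times the core histone counts in WT, 3.86 to 5.04 times in DGCR8 KO and 6.01 to 6.61 times in DDX6 KO.

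Of the 15 core genes tested, Hist1h4i alone was past the adjusted p in DGCR8 KO against WT. Hist1h4i, counted to 376 bases past its stop codon (chr13:22040636-22041362 on the minus strand), had 12, 8.86 and 9.14 CPM in WT, 5.82, 3.05 and 7.33 in DGCR8 KO and 10.3, 9.39, 11.96 and 8.68 in DDX6 KO. All DGCR8 KO libraries were below all WT libraries, while DDX6 KO overlapped with WT. The log2 fold change was -0.92 ± 0.33 (SE) (limma-voom, adjusted p = 0.0359), and it was no longer past the threshold when WT replicate 1 or 3 or DGCR8 KO replicate 1 or 2 was left out, or with DDX6 KO clone 2 alone, without the filter or in DESeq2. Leaving out DGCR8 KO replicate 2 gave -0.57. The other 14 core genes had estimates between -0.80 (Hist1h2bg) and 0.33 (Hist1h4n), each with an adjusted p of 0.0717 or more in limma-voom.

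The comparison of DDX6 KO with WT asks the same of a helicase that acts on deadenylated messages. Of the 20 tested members 0 were called by limma-voom (11.2% of all genes), and 0 by edgeR, DESeq2 and limma-trend. At an unadjusted p under 0.05 there were 9 in limma-voom (background 44.3%), 8 in edgeR, 7 in DESeq2 and 8 in limma-trend. At the adjusted p alone 5 were lower (background 16.6%) and 0 higher (background 17.9%). With library totals in place of TMM scaling, which moves the median of all genes from 0.02 to 0.15, that split was 2 lower and 2 higher, so the directions here are relative to the bulk of genes. Estimates were below 0 for 16 of 20 (48.2% of all genes), with a median of -0.46 against 0.02 over all genes. In 9 of 20 all DDX6 KO libraries were below all WT libraries with TMM (19.4% of all genes), of which 4 were so with library totals as well. No share over all genes is given for library totals, so these 4 and the split above have no background. Both comparisons use the same WT libraries and are not independent.

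The core genes among the 5 were Hist1h2ae, Hist1h2an and Hist1h4d. Hist1h2an, a single-exon H2A gene counted to its stop codon (chr13:21786826-21787218 on the minus strand), had 35.05, 30.7 and 32.3 CPM in WT, 29.7, 17.98 and 31.8 in DGCR8 KO and 17.9, 19.1, 19 and 15.95 in DDX6 KO. Its DDX6 KO libraries were below all WT libraries, and DGCR8 KO replicate 2 was as low as they were. Its log2 fold change was -0.85 ± 0.19 (SE) in DDX6 KO (limma-voom, adjusted p = 0.00231). Hist1h2ae, another H2A gene (chr13:23570662-23571121 on the minus strand), had 21.1, 17.04 and 19.6 CPM in WT, 14.1, 13.2 and 11.8 in DGCR8 KO and 8.79, 14.96, 13.7 and 14.6 in DDX6 KO, with every knockout library below WT. The log2 fold change in DDX6 KO, -0.56 ± 0.21 (SE), was just past the threshold in limma-voom (adjusted p = 0.0431) and not past it in edgeR, DESeq2 or limma-trend.

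Hist1h4d, the H4 gene with the most counts (chr13:23581598-23581990 on the plus strand), had 27.4, 29.6 and 29.2 CPM in WT, 19.9, 17.98 and 24.8 in DGCR8 KO and 19.05, 19.5, 11.96 and 24.6 in DDX6 KO. Every knockout library was below the lowest WT library. The fit gave -0.64 ± 0.20 (SE) in DDX6 KO (limma-voom, adjusted p = 0.0206), which was no longer past the threshold without WT replicate 3, without DDX6 KO clone 2 library 1, with either clone alone, with the replicate block or with library totals, and -0.49 ± 0.22 (SE) in DGCR8 KO (adjusted p = 0.085). Hist1h3c, which held most of the H3 counts (chr13:23745013-23745501 on the minus strand), had 15.4, 14.99 and 14.9 CPM in WT, 8.57, 8.82 and 14.7 in DGCR8 KO and 9.16, 10.8, 10.9 and 14.6 in DDX6 KO. All 7 knockout libraries were below the WT libraries with TMM (6 with library totals), yet neither change passed the adjusted p in limma-voom (0.0888 and 0.185). Hist1h3a, the H3 gene with the next highest mean CPM, had 32 counts over all libraries and was not tested. Hist2h2ac, the Hist2 member with the most counts, had 13.9, 14.99 and 17.8 CPM in WT, 9.49, 11.9 and 23.2 in DGCR8 KO and 11.4, 10.1, 9.50 and 19.3 in DDX6 KO. Hist3h2a, its counterpart in Hist3, had 9.12, 5.79 and 7.80, 5.51, 3.73 and 6.11 and 4.40, 7.65, 10.2 and 7.84 CPM. DDX6 KO overlapped with WT in both genes, with log2 fold changes of -0.36 ± 0.29 (SE) and -0.02 ± 0.30 (SE) (limma-voom, adjusted p = 0.345 and 0.975).

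**Figure D4:**
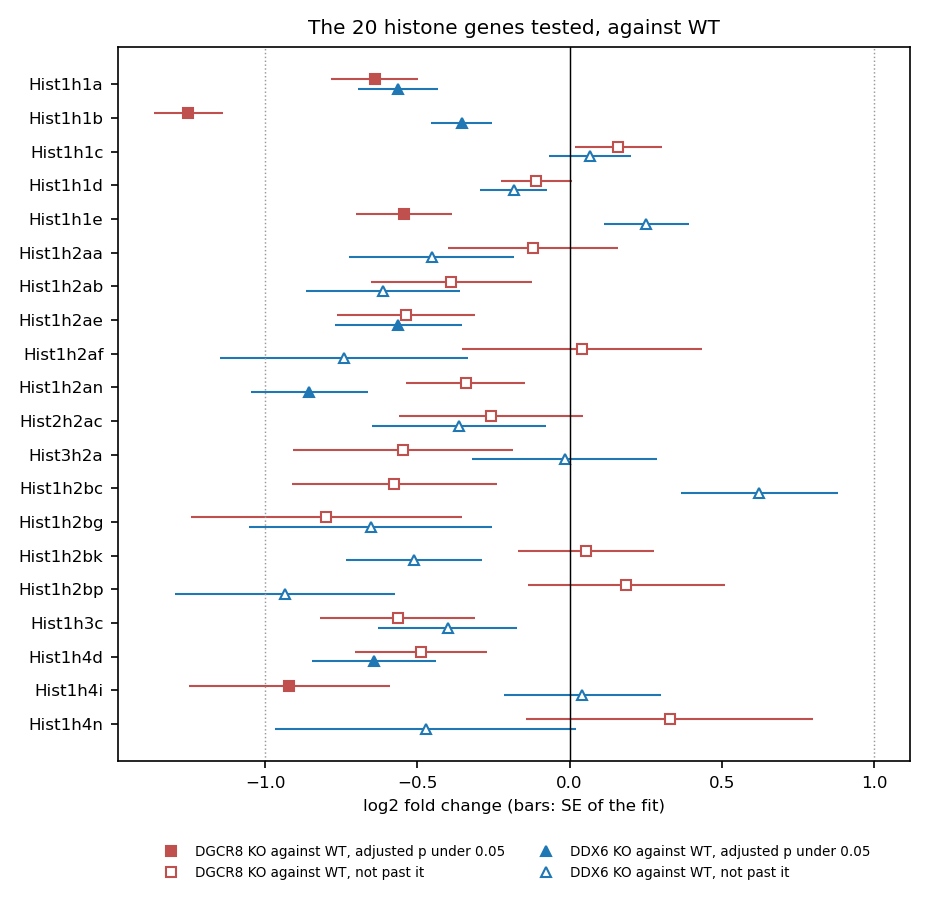
Log2 fold change (x axis) of the 20 tested histone genes (y axis) against WT, squares for DGCR8 KO and triangles for DDX6 KO, with bars for the SE of the fit, filled where the adjusted p was under 0.05, and dotted lines at -1 and 1. The filled symbols all lie left of 0 with the TMM scaling plotted (with library totals Hist1h1e and Hist1h2bc pass above 0 in DDX6 KO), and only Hist1h1b in DGCR8 KO (-1.25) lies beyond -1.

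Setting the knockouts against each other asks which histone genes differ between them. This contrast, DGCR8 KO over DDX6 KO, called 2 of 20 members (17.1% of all genes) in opposite directions, and 7 of 20 passed the adjusted p alone (background 44.0%), 4 lower and 3 higher in DGCR8 KO. Hist1h2bc, an H2B gene with 2 exons whose counted region includes a distant second exon (chr13:23684199-23692488 on the plus strand), had 12, 6.81 and 6.47 CPM in WT, 6.12, 4.41 and 4.48 in DGCR8 KO and 10.6, 14.3, 10.9 and 11.5 in DDX6 KO. All 4 DDX6 KO libraries were above all DGCR8 KO libraries, WT replicates 2 and 3 lay between them, and WT replicate 1 lay among the DDX6 KO libraries. The difference was -1.20 ± 0.31 (SE) on the log2 scale (limma-voom, adjusted p = 0.00414). Against WT neither side passed (-0.58 and 0.62, adjusted p = 0.194 and 0.0687).

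Hist1h2bp, another H2B gene with 2 exons (chr13:21787461-21789213 on the plus strand), had 8.64, 11.2 and 11.1 CPM in WT, 7.96, 10.5 and 23.6 in DGCR8 KO and 5.86, 4.52, 4.22 and 7.28 in DDX6 KO. DGCR8 KO replicate 3 was far above the other 2. The difference between knockouts, 1.12 ± 0.35 (SE) (limma-voom, adjusted p = 0.0157), was 0.73 and not past the threshold without that library, nor was it past it with either DDX6 KO clone alone. Hist1h2bk, the H2B gene with the most counts (chr13:22035870-22036345 on the plus strand), had 12.96, 23.2 and 17.4 CPM in WT, 17.1, 16.6 and 22.8 in DGCR8 KO and 11.7, 14.6, 11.3 and 12.3 in DDX6 KO. The DDX6 KO libraries lay below all DGCR8 KO libraries and overlapped with WT. The difference between knockouts, 0.56 ± 0.22 (SE) (adjusted p = 0.0475), and that of Hist1h2an, 0.51 ± 0.20 (SE) (adjusted p = 0.0478), were past the threshold in 6 and 5 of 21 alternatives. Hist1h1b (-0.90, adjusted p = 2.97e-06) and Hist1h4i (-0.96, adjusted p = 0.0199) were lower in DGCR8 KO in the same limma-voom fit. Hist1h4i was not past the threshold with either DDX6 KO clone alone or without DGCR8 KO replicate 2 (-0.61).

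The 2 DDX6 KO clones, which differ in the residual Ddx6 counts given above, gave 0 calls among the 20 histone genes by limma-voom, and 0 with an unadjusted p under 0.05 (0.0428% and 2.43% of all genes). This contrast was run with limma-voom alone. With 2 libraries per clone the estimates of clone 2 against clone 1 ran from -0.15 to 0.96, with SE up to 0.74, so differences of that size were not detectable in the low genes. The 5 genes outside the family whose log2 CPM followed the summed member level most closely over the 10 libraries were Nhp2 (Pearson r = 0.988), Ddx21 (0.974), Psmd7 (0.974), Uqcrq (0.974) and Mrpl52 (0.973), given as a description, since the points share 3 genotypes. Nhp2 had 164 CPM in WT, 103 in DGCR8 KO and 129 in DDX6 KO.

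Genes that work with the members are given for context, from lists described by their counts. Over all genes tested, 8.93% were called higher and 5.81% lower in DGCR8 KO, and 7.55% higher and 3.66% lower in DDX6 KO. The shares past the adjusted p alone were 19.9% higher and 16.5% lower in DGCR8 KO and 17.9% and 16.6% in DDX6 KO. Replication-independent histone genes, most of whose messages carry a tail, were all tested. Of the 11, 3 were called lower and 0 higher in DGCR8 KO, and 0 were called in DDX6 KO. Past the adjusted p alone, 5 were lower and 0 higher in DGCR8 KO, and 5 lower and 2 higher in DDX6 KO, and the median log2 fold changes were -0.39 and -0.07. H2afx, the DNA damage-signalling H2A variant, had 521, 471 and 519 CPM in WT, 201, 221 and 191 in DGCR8 KO and 274, 261, 265 and 245 in DDX6 KO. The groups did not overlap, and it fell by 1.30 and by 0.95 on the log2 scale (limma-voom, adjusted p = 2.06e-08 and 5.79e-07). Cenpa, the centromeric H3, had 466 ± 61.8 CPM in WT (mean ± SD, n = 3), 168 ± 17.3 in the 3 libraries of DGCR8 KO, and 359.9 ± 47.1 in the 4 of DDX6 KO, with -1.46 ± 0.13 (SE) and -0.37 ± 0.11 (SE). H2afy2, a macroH2A, differed between the knockouts, where -1.15 ± 0.22 (SE) in DGCR8 KO was called, 0.29 ± 0.17 (SE) in DDX6 KO was not, and the direct contrast gave -1.44 ± 0.20 (SE) (limma-voom, adjusted p = 1.86e-05).

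**Figure D5:**
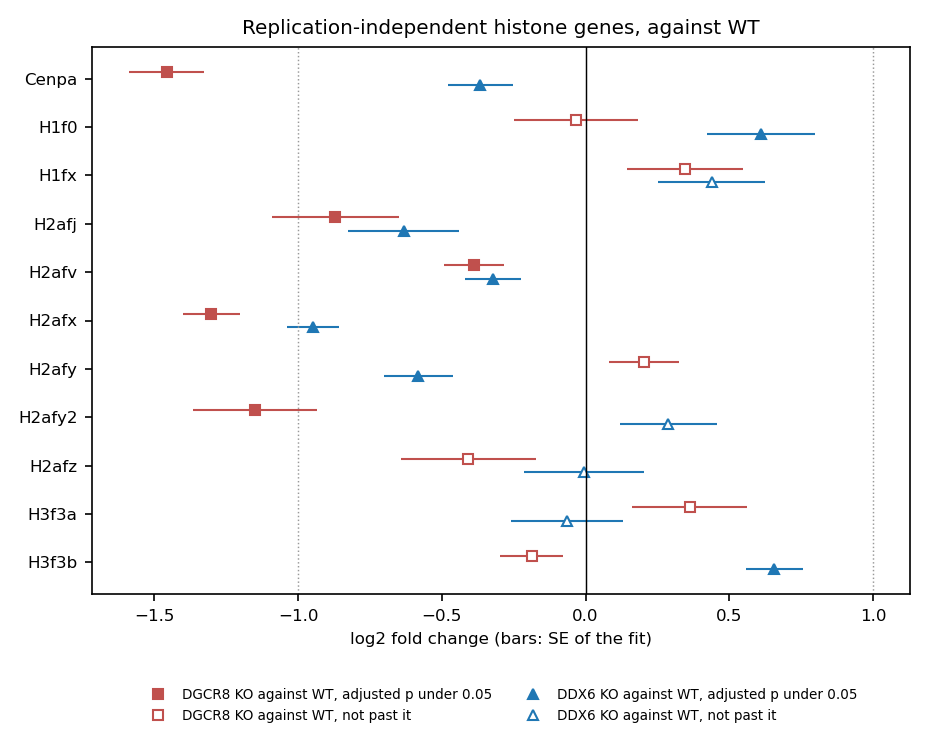
Log2 fold change (x axis) of the 11 replication-independent histone genes (y axis) against WT, squares for DGCR8 KO and triangles for DDX6 KO, with bars for the SE of the fit, filled where the adjusted p was under 0.05, and dotted lines at -1 and 1. H2afx lies at -1.30 and -0.95, and Cenpa at -1.46 and -0.37.

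Of 33 genes of histone mRNA transcription, 3′ processing and decay, 0 were called against WT in either knockout by limma-voom. Past the adjusted p alone, 9 were lower and 1 higher in DGCR8 KO and 9 lower and 5 higher in DDX6 KO, with median log2 fold changes of -0.14 and -0.07. Slbp had 55.7, 59.3 and 52.6 CPM in WT, 24.5, 37.3 and 48.5 in DGCR8 KO and 45.8, 42.8, 35.5 and 56.5 in DDX6 KO. All DGCR8 KO libraries were below WT, with a log2 fold change of -0.68 ± 0.21 (SE) (limma-voom, adjusted p = 0.0146), against -0.31 ± 0.18 (SE) in DDX6 KO (adjusted p = 0.207). Eri1, an exonuclease that trims the end of histone mRNA, had -0.28 ± 0.11 (SE) in DGCR8 KO and 0.28 ± 0.10 (SE) in DDX6 KO (adjusted p = 0.0454 and 0.0328 in limma-voom). Npat, a coactivator of histone gene transcription, rose in both (0.45 and 0.63, adjusted p = 0.00894 and 4.68e-04), and is named after its values were seen.

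Histone genes are read in S phase, so genes of DNA synthesis and its control were set beside them. Of 30, DGCR8 KO had 2 called lower, Rrm2 (-1.27 ± 0.14 (SE)), a subunit of ribonucleotide reductase, and Mcm5 (-1.21 ± 0.12 (SE)), part of the replicative helicase, and 2 called higher, Lats2 (2.36 ± 0.22 (SE)) and Rbl2 (1.89 ± 0.29 (SE)), which restrain cell division. DDX6 KO had 0 called lower and 2 higher, Cdkn1b (1.01 ± 0.11 (SE)), a cyclin-dependent kinase inhibitor, and Rbl2 (1.23 ± 0.30 (SE)). Past the adjusted p alone 11 were lower and 7 higher in DGCR8 KO, and 13 lower and 3 higher in DDX6 KO, with medians of -0.17 and -0.11. Of 26 histone chaperones and import factors 0 were called against WT, and past the adjusted p alone 7 were lower and 4 higher in DGCR8 KO and 12 lower and 3 higher in DDX6 KO (medians -0.15 and -0.32). Of 20 genes of poly(A) tail synthesis and removal, the deadenylase subunits Cnot6 (1.49 ± 0.10 (SE)) and Cnot6l (1.38 ± 0.16 (SE)) were called higher in DGCR8 KO, and Tob1 (1.10 ± 0.21 (SE)), which recruits the deadenylase, in DDX6 KO, with 0 called lower. Past the adjusted p alone 3 were lower and 5 higher in DGCR8 KO and 3 lower and 4 higher in DDX6 KO, with medians of 0.18 and 0.04. The direct contrast called 17.1% of all genes tested, 7.77% higher and 9.32% lower in DGCR8 KO. Of these lists it called 5 genes. Cenpa and H2afy2, of the 11 variants, were lower in DGCR8 KO. Mcm7 and Lats2, of the 30, and Cnot6, of the 20, were higher. It called 0 of the 33 processing genes and 0 of the 26 chaperones and import factors.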

How the data were processed

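QuantSeq 3′ FWD libraries, which read strand-specifically from the end next to the priming site, were made from 3 WT, 3 DGCR8 KO and 4 DDX6 KO samples and sequenced with single-end 50-base reads. Per the study's methods, the authors trimmed adapters and runs of A or T (cutadapt 1.14), kept reads mapping to 1 place of mm10 (STAR 2.5.3a) and counted them on the sense strand over GENCODE M14 exons without rRNA (featureCounts 1.5.3). The deposited values are whole-number counts per gene, not normalized. Trimming of A can shorten reads that end in a tail, and unique mapping drops reads shared by gene copies.

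Identifiers were paired with symbols through GENCODE M21 (GRCm38), for 51274 of 51467 genes, and 92 ERCC spike-in sequences were left out. The symbols Hist1h2bm and Hist1h2bh lie over rows of other identifiers with at most 11 counts in a library, which were not used. Sequence features come from the M21 transcripts, and windows were compared with transcripts only.

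Genes reaching 3 CPM in 3 or more libraries were tested with TMM scaling and limma-voom (limma 3.58.1, edgeR 4.0.16, R 4.3.3) in 1 two-sided fit of group over all 10 libraries, with Benjamini-Hochberg adjustment over all 11683 genes. Calls needed an adjusted p under 0.05 and a log2 fold change beyond 1. edgeR's quasi-likelihood test, DESeq2 1.42.0, limma-trend, other scalings, filters and left-out libraries were alternatives, and the fits were tested on simulated data. Level sums have no test. Floors of 3 counts cover counting error only. Nothing states that replicates were separate cultures, so p-values measure the spread between these libraries, which may be technical. WT and DGCR8 KO libraries of the same number deviated together (r = 0.145 to 0.285 over genes in 3 pairs), though no label states that they are paired. A pairing would rest on these values alone, and they are not independent, since deviations were taken within each group. The blocked fit changed no histone call there.

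The members and lists were chosen with earlier results of these data known. Named genes were those called in a contrast, the 2 with the highest mean CPM in each class and the highest in each cluster, list genes called (at most 3 in each direction), Slbp, Eri1, Dgcr8, Ddx6 and the 5 most like the members' sum. Other genes, among them Hist1h1a, Hist1h1c, Hist1h1e, Hist1h1t, Hist1h2bg, Hist1h4n and Npat, were named after their values were seen.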

Additional observations from a re-analysis of the deposited data

Results flagged for a closer look

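In Hist1h2bg, an H2B gene, 1 DDX6 KO library stood apart from the other 3, with a gap to the nearest of 0.86 of the group's range. Clone 2 library 2 had 7.56 CPM and the others 2.81 to 3.48 CPM. This was the only such library among 31 values examined in DDX6 KO, and chance marks about 1 in 20.

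The effect of DGCR8 KO minus that of DDX6 KO, tested as the direct contrast of the knockouts, was past an adjusted p of 0.05 in limma-voom for 7 histone genes. The difference was -0.897 for Hist1h1b, -0.795 for Hist1h1e, -0.962 for Hist1h4i and -1.20 for Hist1h2bc on the log2 scale. It was 0.513 for Hist1h2an, 0.565 for Hist1h2bk and 1.12 for Hist1h2bp. Hist1h1b, Hist1h1e and Hist1h2bc kept this under all 21 alternatives run, whereas Hist1h2bp was not past the threshold without DGCR8 KO replicate 3 or with either DDX6 KO clone alone, Hist1h4i not without DGCR8 KO replicate 2 or with either clone alone, and Hist1h2an and Hist1h2bk not under 16 and 15 of the 21.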

How the results depend on the processing

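At the adjusted p alone, 4 histone genes passed in DGCR8 KO against WT, 5 in DDX6 KO against WT and 7 between the knockouts. The list genes past it numbered 52, 59 and 58, against 9, 3 and 5 called. Of all genes tested 36.3%, 34.5% and 44.0% were past it, and 14.7%, 11.2% and 17.1% were called. Between the knockouts 4 histone genes were called with library totals as scaling, 1 with the replicate block, and 1 with DDX6 KO clone 1 or clone 2 alone, against 2 as reported. With the replicate block 3 histone genes in DDX6 KO against WT passed the adjusted p alone (Hist1h1a, Hist1h1b and Hist1h2an), against 5. Libraries of the same number in DDX6 KO and the other groups are not paired by any label. All 10 libraries had their highest correlation with their own number, but these are not 10 independent agreements. Deviations were taken within each clone, so its 2 libraries mirror each other. Same-number r was 0.011 to 0.162 between DDX6 KO and WT and -0.050 to 0.171 between DDX6 KO and DGCR8 KO. Leaving out 1 library gave 1 to 2 histone genes in DGCR8 KO against WT (2 without DGCR8 KO replicate 3), 0 in DDX6 KO against WT and 1 to 3 between the knockouts (1 without DDX6 KO clone 2 library 1), and 1 to 3 list genes in DDX6 KO against WT (1 without WT replicate 3).

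Without the member with the most counts, the log2 ratio of DGCR8 KO to WT was -0.29 for all members, -0.30 for H1, -0.29 for Hist1 and -1.15 for Hist2. That of DGCR8 KO to DDX6 KO was -0.0790, -0.14, -0.0766 and -1.09 in the same order, and turned to 0.22 for Hist3. That of DDX6 KO to WT was 0.58 for H3 and -0.65 for Hist3. AATAAA stood in the first 300 bases after the stop codon of 6 members, against 2 in 150. Of 654 recomputed values of single genes past the threshold, 588 stayed past it in the same direction, 66 did not and 0 changed sign. Depth and unique mapping both limit the low genes and were not told apart. Of the 19 members with at most 3 counts in every library, 18 are core histone genes and 12 share over 80% of their windows. Plain library totals for the separation of groups, and the sets by counted end without DGCR8 KO replicate 3, were chosen after seeing the data.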
